A study of Mus musculus with 7 samples.

Results

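The 9 genes described here make up the route by which a cell shows peptides to CD4+ T cells on major histocompatibility complex (MHC) class II molecules. They were taken by symbol: *H2-Aa*, *H2-Ab1*, *H2-Eb1*, *H2-DMa*, *H2-DMb1*, *H2-Oa*, *Cd74*, *Ciita* and *Cd86*. Each matched 1 identifier among the 47729 genes of the deposited count table, and all 9 passed the filter on low counts that left 19188 genes for testing. RNA came from aorta tissue of mice labelled MMP19KO (KO, 3 libraries) and of wild-type mice labelled Wt (WT, 4 libraries). KO mice are Mmp19-/-, lacking a secreted matrix metalloproteinase by genotype, and no treatment is named for either group. Strain, age, sex, the way the allele was made, and whether a library holds 1 mouse or a pool are not given in the labels. The p-values below therefore measure the spread between these 7 libraries.

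Class II molecules are built from an α and a β chain, encoded in mice by *H2-Aa* with *H2-Ab1* (the I-A molecule) and by *H2-Ea* with *H2-Eb1* (I-E). The invariant chain, *Cd74*, fills the groove until endosomal proteases cut it down to a short peptide. H2-DM, made of *H2-DMa* and a *H2-DMb* chain, exchanges that peptide for others, and H2-O, of which *H2-Oa* is the α chain, restrains H2-DM. *Ciita* encodes the coactivator on which transcription of these genes depends, and *Cd86* encodes a costimulatory ligand for CD28 on T cells. Dendritic cells, B cells and activated macrophages are the usual carriers of class II, while smooth muscle and endothelial cells can be brought to make it by interferon γ.

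Class II promoters share an X box and a Y box, the sites through which a complex of RFX, CREB and NF-Y recruits CIITA. The sequences are shown to describe the letters that these genes share. RefSeq promoters (GRCm38.p6, 250 bases before to 50 after the start) were at hand for 5 of the 9 genes, *H2-Aa*, *H2-Eb1*, *H2-DMa*, *H2-DMb1* and *H2-Oa*. They were searched on both strands for GNAAC, part of an X box, followed after 20 to 32 bases by TGATTGG, a Y box. This pattern was chosen after the promoters had been read. In the lines below capitals mark these 2 elements, each strand is that of the gene, and *H2-Ob* and *H2-Eb2* are neighbouring class II genes shown for comparison.
H2-Aa, chr17:34287859-34287912, minus strand: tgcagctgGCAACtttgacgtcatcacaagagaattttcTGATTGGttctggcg
H2-Eb1, chr17:34305768-34305820, plus strand: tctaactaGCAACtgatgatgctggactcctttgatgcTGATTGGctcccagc
H2-Oa, chr17:34092295-34092348, plus strand: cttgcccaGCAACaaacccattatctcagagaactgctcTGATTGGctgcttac
H2-Ob, chr17:34238810-34238860, plus strand: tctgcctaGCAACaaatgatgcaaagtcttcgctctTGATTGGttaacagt
H2-Eb2, chr17:34325535-34325587, plus strand: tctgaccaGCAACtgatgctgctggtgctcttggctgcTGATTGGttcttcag

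The pair of elements was found in 4 of the 5 genes with a promoter, the fourth being *H2-DMb1*. Over all genes with a promoter it was found in 108 of 27025, and over all promoters in 115 of 32851 (0.35%). The pattern was chosen after these promoters had been read, so the counts are no test of it. The elements lay 26 bases apart in *H2-Aa*, *H2-Oa* and *H2-DMb1*, 25 in *H2-Eb1* and *H2-Eb2*, and 23 in *H2-Ob*. The Y box ended 43 bases before the start in *H2-Aa*, 54 in *H2-Eb1* and 38 in *H2-Oa*. TGATTGG alone stood in 7.82% of all promoters and GNAAC alone in 84.8%. The pair was not in either promoter window of *H2-DMa*, nor in that of *H2-DMb2*, which held TGATTGG alone at no such distance from GNAAC. A match describes the letters and shows no binding.

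Library totals ran from 68151472 to 76926790 estimated counts, and no library repeated another (mean chi-square per gene from 20.4 to 222 between pairs, on counts divided by 4). *Mmp19* itself (chromosome 10, 128790910 to 128800824, GRCm38) read 25.5, 11.95 and 15.9 CPM (counts scaled to library size after TMM normalisation) in KO and 24.8, 24.8, 20.7 and 34.7 CPM in WT aortas. The groups overlapped (log2 fold change -0.56, SE 0.28, edgeR quasi-likelihood test, adjusted p = 0.342). A gene total hides which exons its reads cover, so this does not check the labels. Smooth muscle markers were abundant in every library, for example *Acta2* at 1674 to 6165 CPM in KO aortas and 7989 to 9202 CPM in WT aortas. KO replicate 1 stood apart from the other libraries on the first principal component and by its macrophage markers, and values without it are given below.

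The I-A chains and the β chain of I-E, the only I-E chain with counts, were higher in every KO library than in any WT library. *H2-Aa* (ENSMUSG00000036594, chromosome 17, 34282744 to 34287823) encodes the α chain of I-A. It read 181, 78.5 and 146 CPM in KO replicates 1, 2 and 3, against 26.4, 45.7, 29.2 and 43.6 CPM in WT replicates 1 to 4. The lowest KO library was thus well above the highest WT library. The means were 135 ± 52.1 CPM in KO aortas and 36.2 ± 9.83 CPM in WT aortas (SD, n = 3 and 4), and the log2 fold change was 1.90 (SE 0.31, edgeR adjusted p = 0.128). Its β chain partner *H2-Ab1* (chromosome 17, 34257689 to 34269419) read 197, 65.1 and 111 CPM in KO aortas and 26.0, 38.0, 26.6 and 39.8 CPM in WT aortas. Again the groups did not overlap, and KO replicate 1 was the highest library and KO replicate 2 the lowest of the KO group. The log2 fold change was 1.93 (SE 0.36, edgeR adjusted p = 0.135).

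*H2-Eb1*, the β chain of I-E (chromosome 17, 34305867 to 34316674), read 163, 70.3 and 121 CPM in KO aortas and 23.7, 41.2, 24.1 and 41.0 CPM in WT aortas. It ordered the libraries as *H2-Ab1* did within KO, and its log2 fold change was 1.86 (SE 0.33, edgeR adjusted p = 0.134). The 3 chain genes kept close to one another. The ratio of *H2-Aa* to *H2-Ab1* CPM ran from 0.919 to 1.31 in KO and from 1.01 to 1.20 in WT. The ratio of *H2-Eb1* to *H2-Ab1* ran from 0.827 to 1.08 in KO and from 0.905 to 1.08 in WT. The I-E α chain locus, *H2-Ea-ps* in the reference, was listed at 0 in every library, where 3 counts would be 0.0365 to 0.0428 CPM in KO aortas and 0.0407 to 0.0470 CPM in WT aortas. It is annotated as a pseudogene in the C57BL/6 reference.

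The invariant chain was the most abundant member. *Cd74* (chromosome 18, 60803848 to 60812652) read 503, 158 and 257 CPM in KO aortas and 68.9, 105, 68.3 and 107 CPM in WT aortas. Again no WT value reached the lowest KO value, and the log2 fold change was 1.81 (SE 0.38, edgeR adjusted p = 0.138). *Cd74* lay lower relative to *H2-Ab1* in KO, with 2.31 to 2.55 times its CPM in KO aortas and 2.57 to 2.76 times in WT. These ratios did not overlap, but they were picked out after their values had been seen and were not tested.

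*H2-DMa* and *H2-DMb1*, which exchange peptides, had the smallest fold changes of the 9 genes. *H2-DMa* (chromosome 17, 34119541 to 34139101) read 18.1, 7.00 and 10.5 CPM in KO aortas and 3.75, 4.59, 3.94 and 8.19 CPM in WT aortas, so that WT replicate 4 lay above KO replicate 2. Its log2 fold change was 1.21 (SE 0.39, edgeR adjusted p = 0.183). *H2-DMb1* (chromosome 17, 34153072 to 34160230) read 23.0, 10.02 and 15.3 CPM in KO aortas and 7.44, 8.53, 4.42 and 9.65 CPM in WT aortas. Its groups just failed to overlap, KO replicate 2 standing close above WT replicate 4, and the log2 fold change was 1.10 (SE 0.34, edgeR adjusted p = 0.174). *H2-DMa* amounted to 0.0922 to 0.107 of the *H2-Ab1* CPM in KO aortas and to 0.121 to 0.206 in WT, another ratio noticed after its values had been seen.

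*H2-Oa* (chromosome 17, 34092340 to 34095234), the chain of the H2-DM inhibitor that is known mainly from B cells, was close to the detection limit. It read 1.64, 0.371 and 0.557 CPM in KO aortas and 0, 0.197, 0.287 and 0.190 CPM in WT aortas, which are 135, 26 and 43 counts in KO and 0 to 20 counts in WT. The KO libraries were all higher, with KO replicate 1 far above the others. The log2 fold change of 2.33 had the largest error among the members (SE 0.76, edgeR adjusted p = 0.183).

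The coactivator showed a fold change of the same order as the chain genes. *Ciita* (chromosome 16, 10480059 to 10528418) read 26.2, 5.75 and 8.55 CPM in KO aortas and 1.65, 4.25, 2.18 and 3.29 CPM in WT aortas. The groups did not overlap, although KO replicate 2 was nearer to WT replicate 2 than to KO replicate 1. The log2 fold change was 2.25 (SE 0.56, edgeR adjusted p = 0.145), and 1.32 without KO replicate 1. The costimulatory gene *Cd86* (chromosome 16, 36603869 to 36666081) read 11.5, 5.50 and 9.09 CPM in KO aortas and 5.52, 1.97, 2.38 and 3.38 CPM in WT aortas. KO replicate 2 and WT replicate 1 were level, so the groups overlapped, and the log2 fold change was 1.40 (SE 0.40, edgeR adjusted p = 0.160).

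**Figure D1:**
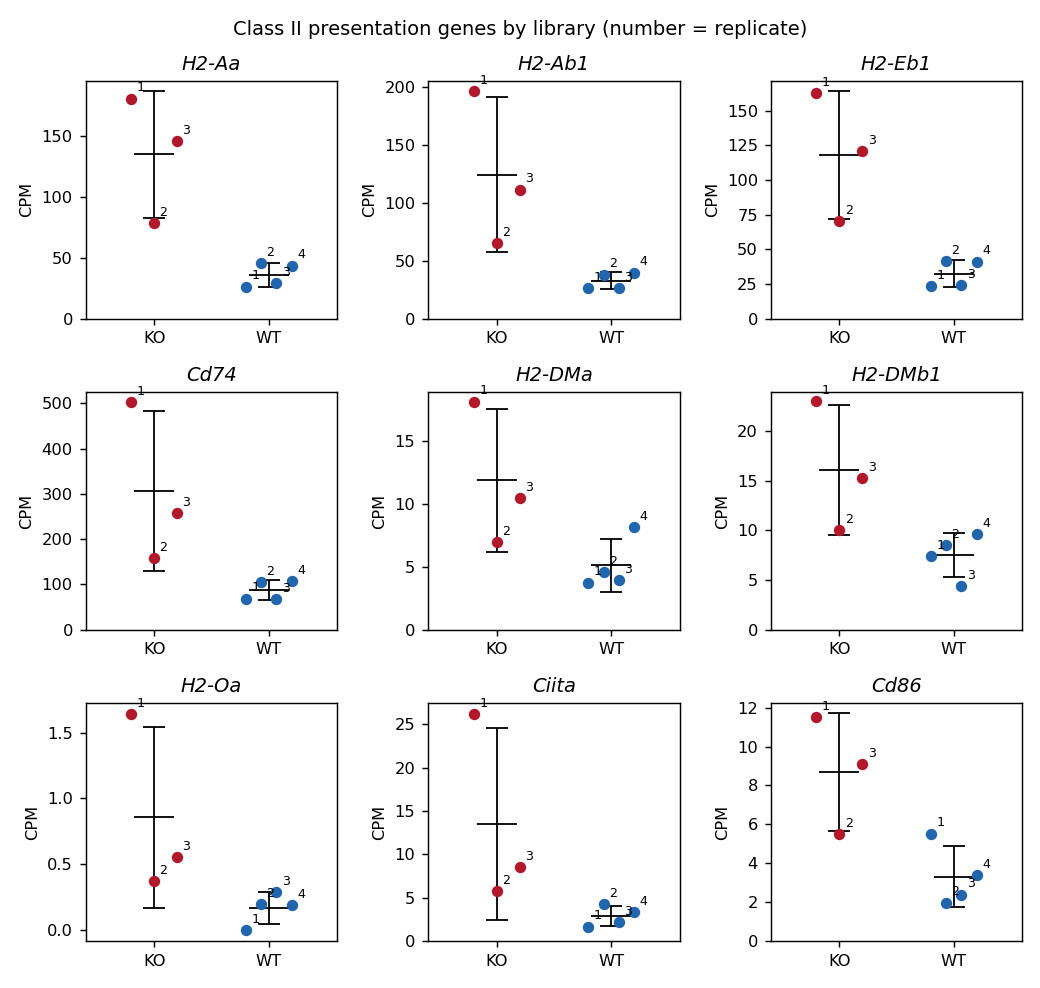
CPM of the 9 class II presentation genes in each library, with KO on the left and WT on the right. Points are libraries labelled by replicate number, the long tick is the group mean and the error bars are 1 SD (n = 3 KO and 4 WT). KO replicates rank 1, 3, 2 in every panel, and the groups overlap for *H2-DMa* and *Cd86*.

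Taken over the 9 genes, 0 passed edgeR's test at an adjusted p of 0.05, where 5 of 19188 genes (0.0261%) did, all of them higher in KO. At an unadjusted p under 0.05 all 9 were higher, against 10.6% of all genes higher and 7.84% lower. DESeq2 called 8 of the 9 higher, all but *H2-Oa* (adjusted p = 0.147), where it called 5.32% of all genes higher and 3.05% lower. Its adjusted p ran from 6.83e-06 for *H2-Aa* to 0.0420 for *H2-DMa*. The genotypes were fully separated in 7 of the 9, each higher in KO, against 8.17% of all genes higher in this way and 8.56% lower. For *H2-Aa*, *H2-Ab1*, *H2-Eb1*, *H2-DMb1*, *Cd74* and *Ciita* the exact 2-sided permutation p was 0.0286, the smallest that 35 splits of 7 libraries can give. It was 0.0571 for *H2-Oa* and 0.0857 for *H2-DMa* and *Cd86*.

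The median log2 fold change of the 9 genes was 1.86 (range 1.10 to 2.33, all 9 positive), beside -0.03 for all genes tested, of which 46.9% were positive and 7.65% had a log2 fold change of 1.10 or more. Without KO replicate 1 the median of the 9 was 1.32 and edgeR called 0 of them. Without KO replicate 2 edgeR called 5, *H2-Aa*, *H2-Ab1*, *H2-Eb1*, *Cd74* and *Ciita*, all higher in KO (adjusted p = 0.0115 to 0.0347), where 4.55% of all genes were called higher. The fold changes that moved most without KO replicate 1 were those of *Ciita* (log2 1.32) and *H2-Oa* (log2 1.43), followed by *Cd74* (log2 1.24). Those of *H2-DMa* and *H2-DMb1* were then log2 0.77 and 0.75.

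**Figure D2:**
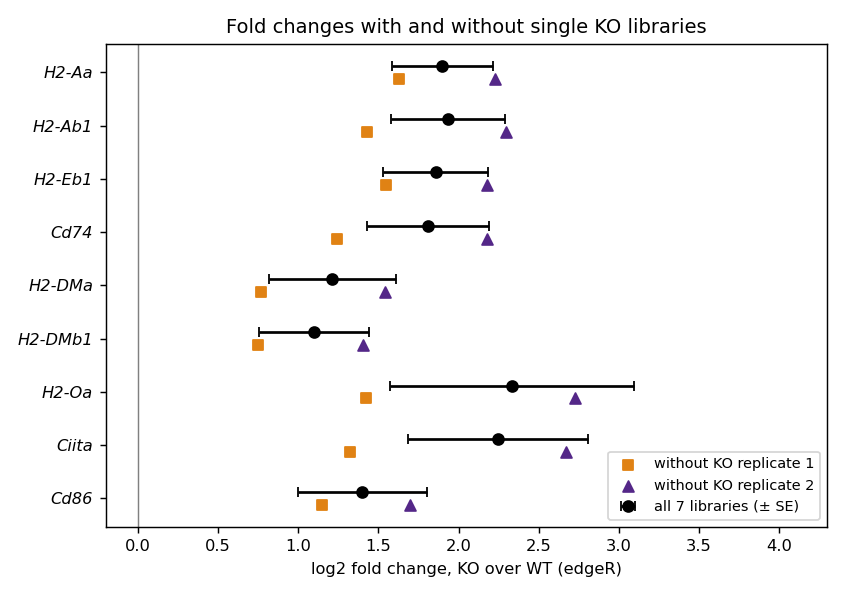
Log2 fold change of KO over WT for each of the 9 genes (edgeR). Circles with bars are the value from all 7 libraries ± SE, squares leave out KO replicate 1 and triangles leave out KO replicate 2. All values are positive, from 0.75 for *H2-DMb1* without KO replicate 1 to 2.73 for *H2-Oa* without KO replicate 2.

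Most members shared an order of libraries within each genotype. All 9 had their highest KO value in replicate 1 and their lowest in replicate 2. In 7 of the 9, all but *H2-Oa* and *Cd86*, WT replicates 2 and 4 lay above WT replicates 1 and 3. The KO order is not particular to these genes. Summed macrophage markers had it too (4073, 808 and 1341 CPM), and summed smooth muscle markers had the reverse (3351, 13307 and 6952 CPM). The share of all genes with the KO order, its reverse or the WT order was not counted. These counts are therefore not read as a trait of the 9 genes. As medians over the 9 genes, log2 deviations from the WT mean were 2.38, 1.02 and 1.67 in KO replicates 1, 2 and 3. They were -0.37, 0.30, -0.30 and 0.33 in WT replicates 1 to 4.

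Per kilobase of annotated exon, the order of the mean levels was the same in both genotypes. *Cd74* was highest at 182 ± 106 CPM per kilobase in KO and 52.1 ± 13.0 in WT. It was followed by *H2-Eb1* (60.6 ± 23.8 in KO and 16.7 ± 5.12 in WT), *H2-Ab1* (48.5 ± 26.0 and 12.7 ± 2.85) and *H2-Aa* (35.6 ± 13.7 and 9.54 ± 2.59), with KO before WT. Each step between these genes held in 7 of 7 libraries. *H2-DMb1* came next, at 9.57 ± 3.87 CPM per kilobase in KO and 4.47 ± 1.34 in WT, followed by *H2-DMa* at 3.44 ± 1.65 in KO and 1.48 ± 0.603 in WT. *Cd86* (2.38 ± 0.826 in KO and 0.905 ± 0.433 in WT) lay below *H2-DMa* in 6 of 7 libraries. *Ciita* and *H2-Oa* were lowest, with 1.42 ± 1.16 and 0.609 ± 0.487 in KO and 0.298 ± 0.122 and 0.120 ± 0.0858 in WT (SD, n = 3 and 4 throughout). These lengths join all annotated exons of a gene, so a gene with many rarely used exons reads too low.

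Of the 4 further class II chain genes, 3 had enough counts to be tested. *H2-Eb2*, a β chain gene beside *H2-Eb1*, read 0.608, 0.200 and 0.660 CPM in KO aortas and 0.0407 to 0.115 CPM in WT aortas, without overlap. *H2-DMb2*, the other DM β chain gene, averaged 3.17 ± 2.41 CPM in KO aortas and 1.20 ± 0.283 CPM in WT aortas (SD, n = 3 and 4). *H2-Ob*, the partner of *H2-Oa*, averaged 2.42 ± 1.74 CPM in KO aortas and 0.893 ± 0.357 CPM in WT aortas. None passed edgeR (log2 fold changes 2.69, 1.41 and 1.45 for the genes in that order, adjusted p = 0.135 to 0.244, all 3 at an unadjusted p under 0.05), and the last pair overlapped between the groups. DESeq2 gave no adjusted p for *H2-Eb2* and did not call the other two. Without KO replicate 1 the log2 fold changes were 2.51 for *H2-Eb2*, 0.59 for *H2-DMb2* and 0.77 for *H2-Ob*. Without KO replicate 2 edgeR called *H2-Eb2* higher (adjusted p = 0.0114). Of the 50-base stretches in *H2-DMb1* transcripts, 22.7% also occur in *H2-DMb2* transcripts, so counts of this pair may be split between them.

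The factors that bind class II promoters beside CIITA did not share the pattern. The 7 genes for RFX subunits, NF-Y subunits and CREB1 had log2 fold changes from -0.30 to 0.25 with a median of 0.04, and 0 passed either edgeR or DESeq2, nor was any at an unadjusted p under 0.05 in edgeR. *Rfx5*, one of the RFX subunits whose loss causes class II deficiency in humans, read 18.9, 21.05 and 16.8 CPM in KO aortas and 19.2, 22.6, 25.7 and 25.7 CPM in WT aortas. Its values overlapped between the groups. The largest positive value was that of *Creb1*, at 74.8 ± 7.90 CPM in KO aortas and 63.0 ± 4.93 CPM in WT aortas (SD, n = 3 and 4; log2 fold change 0.25, edgeR adjusted p = 0.301).

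Genes of the interferon γ route to *Ciita* had small positive differences apart from *Irf8*. Interferon γ itself, *Ifng*, was listed at 0 in 6 libraries and at 0.0777 CPM in KO replicate 3, which is 6 counts. Among the 8 tested genes the median log2 fold change was 0.39, 0 passed edgeR (4 at an unadjusted p under 0.05), and DESeq2 called 2 higher, among them *Irf8*. *Irf8*, a transcription factor of monocytes and dendritic cells, read 52.9, 9.62 and 19.1 CPM in KO aortas and 4.84 to 6.52 CPM in WT aortas (log2 fold change 2.29, edgeR adjusted p = 0.142, DESeq2 adjusted p = 0.000619), with a log2 fold change of 1.36 without KO replicate 1. *Irf1*, which acts on the interferon-responsive *Ciita* promoter, averaged 40.6 ± 6.76 CPM in KO aortas and 30.0 ± 7.23 CPM in WT aortas and overlapped.

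The endosomal genes that prepare peptides and cut the invariant chain were led by cathepsin S. *Ctss*, the protease that makes the last cut of the invariant chain in antigen-presenting cells, read 409, 47.6 and 102 CPM in KO aortas and 14.4, 14.4, 10.5 and 20.8 CPM in WT aortas. All KO libraries were higher, KO replicate 1 by far (log2 fold change 3.63, SE 0.68, edgeR adjusted p = 0.135, and 2.31 without KO replicate 1). *Lgmn*, an asparaginyl endopeptidase, read 514, 106 and 156 CPM in KO aortas and 87.7 to 102 CPM in WT aortas. *Ifi30*, the reductase that opens disulphide bonds of antigens, read 108, 33.9 and 39.6 CPM in KO aortas and 22.5 to 30.1 CPM in WT aortas. For both the lowest KO library lay just above WT, and without KO replicate 1 their log2 fold changes were 0.43 for *Lgmn* and 0.46 for *Ifi30*, beside 1.41 and 1.19 with it. Of the 8 genes of this list 0 passed edgeR (5 at an unadjusted p under 0.05) and DESeq2 called 3, *Ctss*, *Lgmn* and *Ifi30*, higher, with a median log2 fold change of 0.73. *Ctsl*, *Ctsb*, *Ctsd*, *Psap* and *Cst3* had log2 fold changes of 0.01 to 0.78.

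The ligases that send class II molecules for degradation had fold changes of unlike size. *March1*, which acts in resting dendritic cells and B cells, read 28.4, 5.98 and 13.1 CPM in KO aortas and 5.01, 2.93, 2.01 and 2.81 CPM in WT aortas, without overlap (log2 fold change 2.32, SE 0.53, edgeR adjusted p = 0.143, DESeq2 adjusted p = 0.000959), with a log2 fold change of 1.59 without KO replicate 1. *March8*, its broadly expressed relative, averaged 77.7 ± 3.62 CPM in KO aortas and 84.3 ± 1.16 CPM in WT aortas (SD, n = 3 and 4; log2 fold change -0.12, edgeR adjusted p = 0.513). Every KO library lay below WT (73.6 to 80.0 CPM against 82.7 to 85.4 CPM), as for 8.56% of all genes. Among 10 genes for costimulation and its inhibitors 7 were tested, 0 passed edgeR (2 at an unadjusted p under 0.05) and DESeq2 called *Cd80* alone. *Cd80*, the second ligand of CD28, read 9.77, 1.86 and 3.30 CPM in KO aortas and 1.54, 0.436, 0.445 and 1.81 CPM in WT aortas, where KO replicate 2 barely cleared WT replicate 4 (log2 fold change 2.25, and 1.30 without KO replicate 1). *Cd274*, the inhibitory ligand PD-L1, averaged 21.6 ± 6.68 CPM in KO aortas and 26.2 ± 15.7 CPM in WT aortas.

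**Figure D3:**
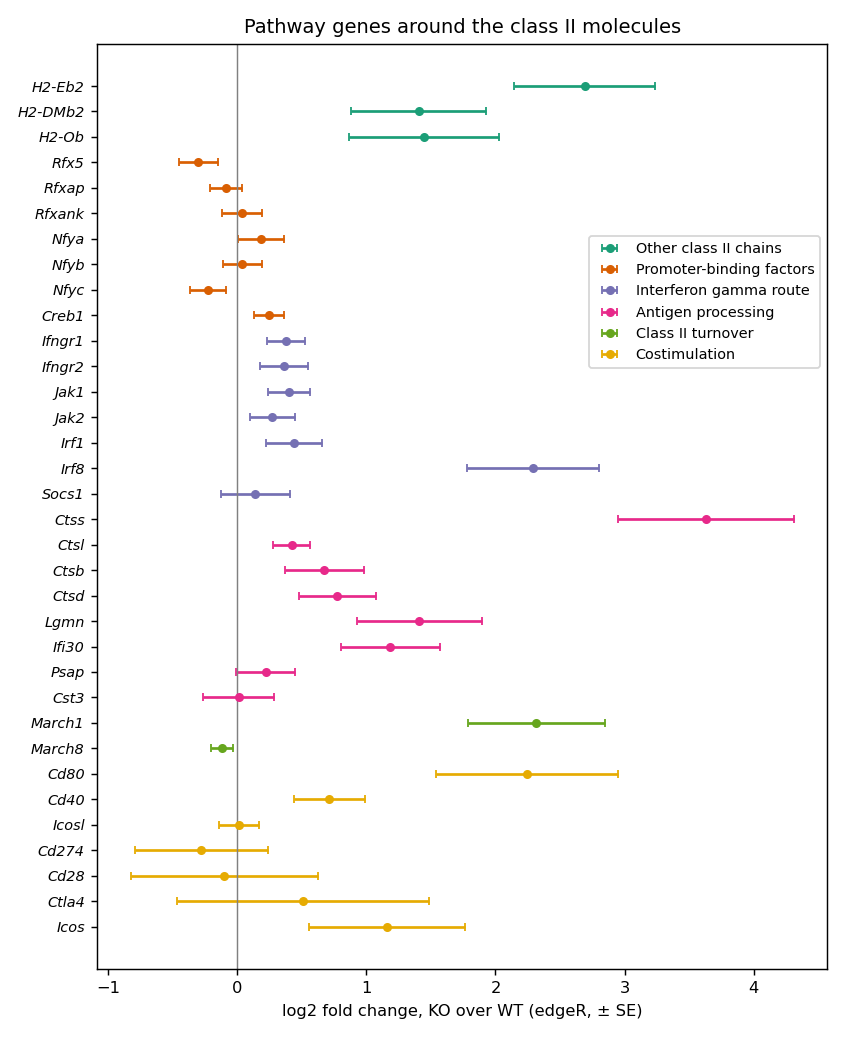
Log2 fold change of KO over WT ± SE (edgeR) for 34 of the 35 tested genes of 6 lists around the class II molecules, coloured by list. Promoter-binding factors lie between -0.30 and 0.25, while *Ctss*, *H2-Eb2*, *March1*, *Irf8* and *Cd80* lie above 2.

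Over these 6 lists, 0 of 35 tested genes passed edgeR (15 were higher at an unadjusted p under 0.05) and DESeq2 called 7 higher and 0 lower, with a median log2 fold change of 0.40. Beside these lists, 10.6% of all genes were higher at that unadjusted p, and DESeq2 called 5.32% of all genes higher and 3.05% lower. When KO replicate 2 was left out, edgeR called 5 of the 35, where 4.55% of all genes were called higher. In whole tissue, more cells of a type and more RNA per cell cannot be told apart, and the markers of leukocytes differed in the same libraries. The 12 macrophage markers summed to 4073, 808 and 1341 CPM in KO aortas and to 407 to 643 CPM in WT aortas. Of the 12, 10 lay above WT in every KO library, as did 8.17% of all genes. The median log2 fold change of the 12 was 1.90, with 0 called by edgeR and 10 by DESeq2, and *Mertk* and *Lyve1* were the exceptions. Without KO replicate 1 that median was 1.28, and without KO replicate 2 edgeR called 9 of the 12. Of 10 dendritic cell markers 5 lay higher without overlap, as did 8.17% of all genes. Among these 5, *Flt3* had the largest log2 fold change (3.64). *Flt3* read 10.6, 1.63 and 2.51 CPM in KO aortas and 0.0543 to 0.631 CPM in WT aortas. The rest, *Zbtb46*, *Batf3*, *Ccr7*, *Fscn1* and *Siglech*, overlapped between the groups. *Zbtb46* alone had a negative log2 fold change (-0.27), and that of *Siglech* was 0.19. The sum of the 10 was 206, 70.1 and 102 CPM in KO aortas and 55.5 to 79.3 CPM in WT aortas, so that it overlapped in KO replicate 2. This sum rested largely on *Zbtb46* and *Fscn1*, which both overlapped. *Fscn1* read 112, 25.0 and 44.8 CPM in KO aortas and 22.6 to 39.5 CPM in WT aortas. The part of these cells in the class II values was not tested.

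B cell RNA was scarce, and T cell RNA did not follow class II. The 8 B cell markers summed to 17.0, 4.70 and 8.91 CPM in KO aortas and to 3.40 to 7.28 CPM in WT aortas, with every single marker at 5.42 CPM or less. The 8 T cell markers, which include both *Cd4* and *Cd8a*, summed to 16.7, 47.6 and 32.4 CPM in KO aortas and to 18.6, 139, 16.6 and 12.1 CPM in WT aortas. WT replicate 2 held the most, and KO replicate 1, the library richest in class II, held fewer than the other KO libraries. The 6 smooth muscle markers summed to 3351, 13307 and 6952 CPM in KO aortas and to 17647 to 19589 CPM in WT aortas. Each of them was lower in every KO library, as were 8.56% of all genes. Of these 6, 0 passed edgeR (5 at an unadjusted p under 0.05, and 5 called without KO replicate 2) and DESeq2 called 4 lower. Over all genes 7.84% were lower at that unadjusted p, and DESeq2 called 3.05% lower. The 7 endothelial markers summed to 868, 1519 and 1487 CPM in KO aortas and to 1453 to 1590 CPM in WT aortas. The sums of fibroblast markers (6 genes) and adipocyte markers (5 genes) overlapped, at 7274 to 11508 CPM and 706 to 1366 CPM in KO aortas and at 5199 to 9406 CPM and 820 to 1557 CPM in WT aortas. Within the fibroblast list *Lum*, a collagen-binding proteoglycan, did not overlap, at 447, 422 and 486 CPM in KO aortas and 139 to 225 CPM in WT aortas. Its log2 fold change was 1.27 (SE 0.17, edgeR adjusted p = 0.109, DESeq2 adjusted p = 5.08e-08), and 1.27 without KO replicate 1.

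Set against the macrophage markers, the class II values of the genotypes overlapped, and a difference was not tested. The summed CPM of *H2-Aa*, *H2-Ab1*, *H2-Eb1* and *Cd74* was 1043, 372 and 635 in KO and 145, 230, 148 and 232 in WT. Divided by the summed macrophage markers this gave 0.256, 0.461 and 0.474 in KO and 0.232, 0.486, 0.364 and 0.361 in WT. The ranges overlapped almost entirely, and KO replicate 1, with the most class II, had the lowest ratio of its group. Single abundant genes weigh on the marker sum, so the ratio is no level per cell. *Lyz2* read 1879, 260 and 484 CPM in KO aortas and 95.2 to 205 CPM in WT aortas. *Mertk* read 130 CPM in WT replicate 1 and 55.1 to 67.8 CPM in the other WT libraries. Divided by *Ptprc*, which encodes the leukocyte antigen CD45, the same sum gave 4.33, 7.81 and 8.01 in KO and 9.19, 4.51, 8.76 and 9.27 in WT. Here the overlap rested on WT replicate 2, since every KO ratio lay below those of the other WT libraries. *Ptprc* read 241, 47.7 and 79.3 CPM in KO aortas and 15.8, 51.0, 16.9 and 25.0 CPM in WT aortas. These ratios are descriptions without a test.

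**Figure D4:**
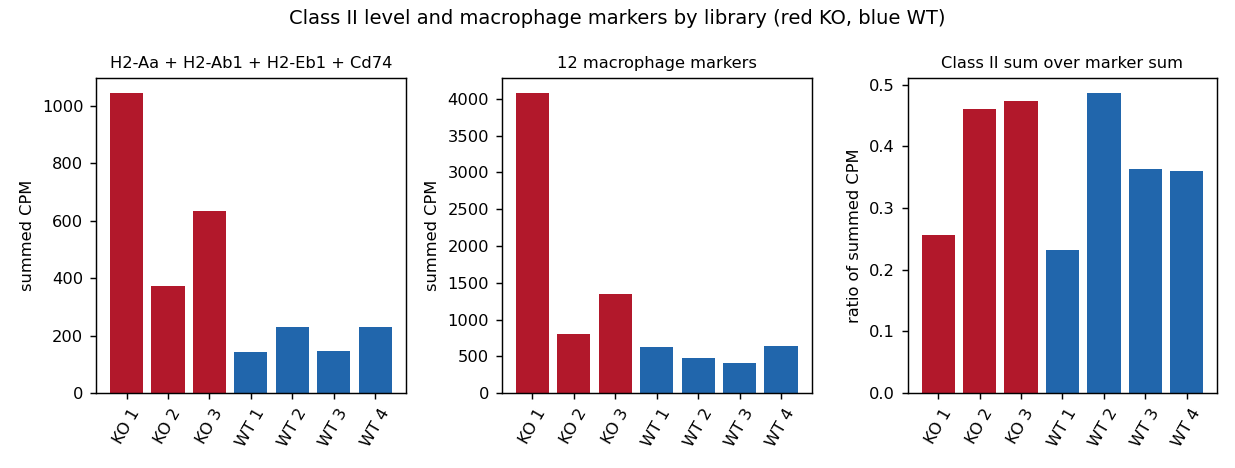
Bars give, for each library (3 KO in red on the left, 4 WT in blue), the summed CPM of *H2-Aa*, *H2-Ab1*, *H2-Eb1* and *Cd74*, the summed CPM of 12 macrophage markers, and the ratio of these sums. The sums are higher in KO, whereas the ratio runs from 0.256 to 0.474 in KO and from 0.232 to 0.486 in WT.

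Among 13538 other genes with a mean of 2 CPM or more, those nearest in pattern to the average of *H2-Aa*, *H2-Ab1*, *H2-Eb1* and *Cd74* were sought by the root mean square difference of centred log2 CPM over the 7 libraries. The 8 nearest, among them *Fgl1*, *Tnfaip2*, *Slfn8*, *Adam12*, *Fam111a*, *Lyn* and *C1qa*, stood at 0.20 to 0.27 log2 units, where the median gene stood at 1.04. *Fgl1* read 6.59, 2.30 and 3.64 CPM in KO aortas and 0.815, 1.08, 0.861 and 1.78 CPM in WT aortas. *Adam12*, a membrane metalloproteinase, read 231, 60.2 and 109 CPM in KO aortas and 32.4, 50.6, 24.2 and 48.1 CPM in WT aortas. *Lyn*, a kinase of myeloid and B cells, read 118, 29.8 and 49.4 CPM in KO aortas and 16.5 to 21.1 CPM in WT aortas. *Ciita* stood at 0.35 from the same profile, *H2-DMa* at 0.38, *H2-DMb1* at 0.42, *Cd86* at 0.62 and *H2-Oa* at 1.02, while the 4 genes that define it stood at 0.07 to 0.11.

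Some counts may include reads of overlapping genes, since the strand setting is not given in the sources used here. Of the exon bases of *H2-DMa* 10.4% are shared with *Brd2* on the other strand, which reached 218 CPM, and of those of *Ciita* 3.45% with *Dexi*, which reached 15.6 CPM. For *H2-Oa* 22.8% of exon bases overlap the antisense gene *BC051537*, which did not exceed 0.207 CPM. What such reads add to these counts was not tested.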

How the data were processed

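The authors deposited 1 table of whole-number estimated counts per Ensembl gene for 7 libraries, each library built from 2 µg of Trizol-extracted RNA (SMARTER mRNA kit), per the labels' protocols. The submitters' processing notes name GRCm38 and mm10. Aligner, counting tool, annotation and strandedness: not given in the sources used here. Among low values, 4, 8 and 12 are more frequent than their neighbours, so counts are not taken as reads. Of 47729 identifiers, 47310 matched a symbol; positions and exon lengths are GENCODE M21 (GRCm38).

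With R 4.3.3 and edgeR 4.0.16, genes were filtered with filterByExpr (19188 kept), scaled by TMM, and tested for KO against WT with glmQLFit (legacy = FALSE) and glmQLFTest, with Benjamini-Hochberg adjustment over all genes. The SE is the log2 fold change divided by the root of the F statistic. Exact 2-sided permutation tests used log2 CPM (prior count 2). The procedure was tested on simulated data. Replicate numbers were not treated as a pairing in the reported fit. Alternatives were other scalings and filters, counts divided by 4, DESeq2 1.42.0, limma-voom 3.58.1, robust and legacy fits, a replicate block and leaving out each library.

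The 9 members and the 15 other gene lists were chosen with earlier results of these data known. All members were named, with genes of the lists and, by the likeness rule, genes among the 8 nearest. Some genes that this rule covers are not reported here. *Brd2*, *Dexi*, *BC051537* and the genes of the marker lists were named outside the rule, after their values were seen.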

Additional observations from a re-analysis of the deposited data

Results flagged for a closer look

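The summed CPM of *H2-Aa*, *H2-Ab1*, *H2-Eb1* and *Cd74* per CPM of *Ptprc* was far lower in WT replicate 2, at 4.51, than in the other WT libraries, at 8.76 to 9.27. That library also held the most T cell marker RNA, 139 CPM in sum against 12.1 to 18.6 CPM in the other WT libraries. Whether T cells lowered the ratio was not tested. The value stood out because its gap to the next WT library, divided by the range of the 4 WT libraries, exceeded the 95% critical value of Dixon's test, which by its definition chance exceeds in about 1 of 20 groups. The rule was applied to the WT values of each of the 9 genes and of the ratios to macrophage markers and to *Ptprc*. A flag somewhere among these by chance is therefore likelier than 1 in 20.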

How the results depend on the processing

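All 9 genes kept a positive log2 fold change under each of the 17 alternatives in which they could be fitted (0.75 to 2.73 over 151 fits, *H2-Oa* being filtered out with 50 counts in 3 libraries and with counts divided by 4). None of these fits reversed, and 13 passed the threshold, 8 with DESeq2 and 5 without KO replicate 2. The count of members called was 0 in the reported fit, 8 with DESeq2 and 0 to 5 on leaving out a library; the cause was not tested. Their median log2 fold change was 1.32 to 2.18 on leaving out a library. The count of all genes called was 5 in the reported fit, 8 with the filter of 50 counts, 10 with counts divided by 4, 3 with the legacy fit and 1606 with DESeq2. It was 0 to 1364 on leaving out a library, with 0 without any WT library, 22 without KO replicate 3, 6 without KO replicate 1 and 1364 without KO replicate 2. With the replicate number as a block it was 0, and 0 members were called. Whether the numbers pair the samples could not be decided from the counts. Same-numbered libraries deviated together with r = 0.0545, 0.0691 and 0.34 across genes for replicates 1, 2 and 3. Other pairs ran from -0.234 (KO 3 with WT 1) to 0.147 (KO 2 with WT 1), and not every library correlated best with its own number. The log2 ratio of class II to macrophage markers, KO over WT, was 0.13, and -0.06 to 0.42 on leaving out a library, a range chosen after seeing the data. The smallest group has 3 libraries, and values under 0.0470 CPM rest on 3 counts or fewer.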
